A study of Mus musculus with 9 samples.

Results

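Neurons and glia of the cortex burn glucose that enters through facilitative transporters, is trapped by hexokinases and is broken down to pyruvate and lactate. The 9 genes described here sit at the steps where that flow is usually controlled: the transporters Slc2a1 and Slc2a3, the hexokinases Hk1, Hk2 and Hkdc1, the phosphofructokinase subunit Pfkp with its activator-forming enzyme Pfkfb3, the pyruvate kinase Pkm and the lactate dehydrogenase Ldha. They were taken by symbol from a table of 34714 genes, and all 9 were found there and had enough counts to be tested. The 9 were chosen by name after their CPM in the naive, EAE and treated libraries and the resulting differences had been seen. Their levels, differences and calls are therefore a description of these libraries and no independent support for any change.

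Poly(A) RNA of mouse cortex was sequenced from 9 mice, 3 in each group. The groups were naive, untreated EAE (experimental autoimmune encephalomyelitis, in which immune cells attack myelin, used to model multiple sclerosis) and EAE given the gold nanocluster Au18(L-NIBC)14. The treated mice thus carry the disease as well, and the EAE libraries take part in 2 of the 3 comparisons. The sources used here do not give strain, genotype, age, sex, the induction of EAE, the dose or the day of sampling. Nothing in the labels says how the numbered brains of a group were collected, so p-values measure only the spread between these samples. Total counts ran from 26972179 to 45243553 per library, and levels are CPM, a gene's counts relative to its library's total, scaled with TMM factors. Markers of neurons were abundant in every library, with a summed level of 10213 to 12192 CPM for 12 genes and Camk2a the highest of them. Markers of other brain regions differed between libraries of a group: 7 striatal markers summed to between 263 and 1744 CPM, and 11 choroid plexus markers to 1368 CPM in EAE replicate 1 against 165 to 349.9 CPM in the other 8 libraries. In bulk tissue, fewer cells of a type and less RNA per cell cannot be told apart.

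Glucose reaches the brain across the endothelium of the blood-brain barrier, where the transporter GLUT1, encoded by Slc2a1, is the main carrier, and it enters neurons chiefly through GLUT3, encoded by Slc2a3. Hexokinase 1 is the housekeeping enzyme of the brain, while hexokinase 2 is typical of insulin-responsive and of activated immune cells. PFKFB3 makes fructose 2,6-bisphosphate, which switches phosphofructokinase on. Lactate dehydrogenase A favours the formation of lactate, and the isoform B favours its use.

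In EAE cortex, Slc2a1 and Hk2 rose by 1.00 and 1.145 on the log2 scale over naive cortex and Hkdc1 fell to 0.436 of its naive level, while Slc2a3 and Pkm were at 0.946 and 0.968 of theirs with overlapping groups. Pfkp, Ldha and Hk1 were lower in all 3 EAE libraries than in any naive library, by smaller amounts. In treated mice, Hkdc1, Pfkp and Ldha were at levels that overlapped the naive ones, whereas Slc2a1 and Hk2 lay between the means of the other groups. Of the 9 genes, 3 passed the test in EAE against naive (edgeR adjusted p under 0.05), 2 of them higher and 1 lower, where 0.987% of the 18644 genes tested passed (0.735% higher and 0.252% lower). None of the 9 passed in treated against untreated EAE, where 0.220% of all genes did (0.0912% higher and 0.129% lower), and none in treated against naive, where no gene did.

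**Figure D1:**
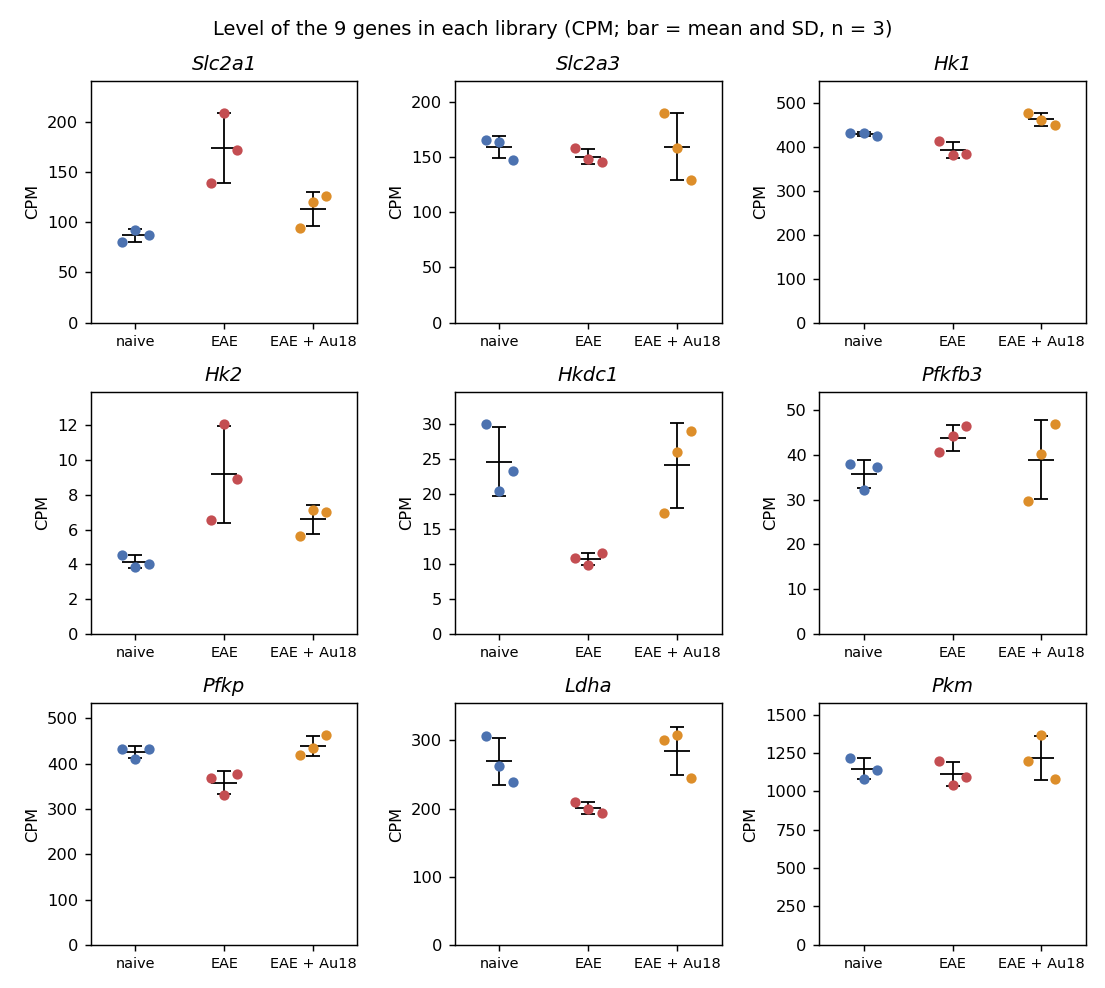
Level of each of the 9 genes in CPM (vertical axis, from 0) in the 3 naive, 3 EAE and 3 treated libraries; points are libraries, and bars give the mean and SD of a group. Slc2a1 and Hk2 are highest in the EAE libraries and Hkdc1 is lowest there, between 9.86 and 11.6 CPM.

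Slc2a1 (chromosome 4, 119108711 to 119137983, plus strand, GRCm38) was at 80.1, 92.6 and 87.5 CPM in naive replicates 1 to 3, at 139, 209 and 172 CPM in EAE and at 93.7, 120.1 and 126 CPM in treated EAE. All 3 EAE values lay above all others, and the treated values lay above all naive ones and below all EAE ones. The mean went from 86.7 ± 6.31 to 173 ± 34.99 CPM (SD, n = 3 each), and EAE against naive gave 1.00 on the log2 scale (SE 0.16, edgeR adjusted p = 0.0280). Leaving out naive replicate 1, 2 or 3 ended the call (edgeR adjusted p = 0.133, 0.0983 and 0.106), as did leaving out EAE replicate 2 or 3 (0.0686 and 0.0772) or treated replicate 2 (0.0502), with log2 fold changes between 0.84 and 1.14 over all alternatives. Treated against untreated EAE gave -0.62 (SE 0.15, 95% interval -0.96 to -0.27, edgeR adjusted p = 0.139), and DESeq2 called it (adjusted p = 0.00917). Against naive, treated libraries had a log2 fold change of 0.38 (95% interval 0.04 to 0.73), which did not pass.

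Endothelial cells are the main site of Slc2a1 in brain, and most of their other markers were also higher in EAE, with a smaller median difference. Of 15 endothelial markers without Slc2a1, 12 had a positive log2 fold change in EAE against naive and 3 a negative one, with a median of 0.27, and Mfsd2a, a lipid transporter of the barrier (1.12), passed. Without overlap, 8 of the 15 were higher and 1 lower, where 12.2% and 11.8% of all genes were. The lower one was Kdr, named after its values were seen, at 20.6 to 22.4 CPM in naive and 12.4 to 15.1 CPM in EAE (-0.67). Their summed level was 412.5 to 426 CPM in naive, 464 to 644 CPM in EAE and 406 to 604 CPM in treated libraries, and none of the 15 was at 0 in any library. Relative to that sum, Slc2a1 was at 20.7 ± 1.69% in naive, 31.9 ± 1.70% in EAE and 24.1 ± 3.82% in treated libraries (SD, n = 3 each). The EAE values of this ratio, 30.0%, 32.5% and 33.2%, lay above those of the other 6 libraries, of which the highest was 28.3% in treated replicate 2. The ratio shows an unequal change of Slc2a1 and the marker sum. Astrocytes also express Slc2a1, and 6 of their 10 markers were above 0 in EAE against naive (median 0.04), with Gjb6 past the threshold (1.33). Without overlap, 3 of the 10 were higher and 0 lower, where 12.2% and 11.8% of all genes were. Their sum was 4620 to 5197 CPM in naive and 4561 to 6598 CPM in EAE, and none was at 0 in any library. All 8 meningeal fibroblast markers were above 0 (median 1.003), none passed and none was at 0 in any library. Of these 8, 4 were higher without overlap and 0 lower, beside the same shares of all genes. Their sum was 254 to 419 CPM in naive, 454 to 1323 CPM in EAE and 245 to 738 CPM in treated libraries. The part of these cells in the level of Slc2a1 was not tested.

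Slc2a3 (chromosome 6, 122727809 to 122801640, minus strand) was at 166, 164 and 148 CPM in naive, 159, 148 and 145 CPM in EAE and 191, 158 and 129.7 CPM in treated libraries. The 3 groups overlapped, and the treated group held both the highest and the lowest value. The log2 fold change of EAE against naive was -0.08 (95% interval -0.35 to 0.20, edgeR adjusted p = 0.811). The spread in the treated group went with that of myelin genes: 9 oligodendrocyte markers summed to 2927 CPM in treated replicate 1, where Slc2a3 was highest, and to 9631 CPM in treated replicate 3, where it was lowest. The part of tissue composition in these values was not tested. Slc2a3 transcripts share stretches of at least 100 bases at 95% identity or more with 74 other genes, 55 of them in the count table, so some of its reads are uncertain.

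Per kilobase of transcript, Slc2a1 made up 36.9%, 40.7% and 41.8% of the pair Slc2a1 and Slc2a3 in naive libraries, 51.6%, 63.2% and 59.0% in EAE and 37.4%, 48.0% and 54.1% in treated libraries. The EAE and naive values did not overlap, and the treated values spanned the gap between them. Which of the 2 transporters has more RNA in naive cortex depends on the transcript length used, since merged exons gave Slc2a1 52.9% of the pair in place of 39.8%.

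Hexokinases phosphorylate glucose on entry. Per kilobase of transcript, Hk1 held 93.2 ± 1.10% of the summed RNA of Hk1, Hk2, Hkdc1 and Hk3 in naive cortex, 94.7 ± 0.994% in EAE and 93.2 ± 1.56% in treated EAE (SD, n = 3 each). The largest differences were thus in members with small shares. Hk2 had 0.625 ± 0.0473% in naive and 1.56 ± 0.515% in EAE, and Hkdc1 5.81 ± 1.08% and 2.83 ± 0.236%.

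**Figure D2:**
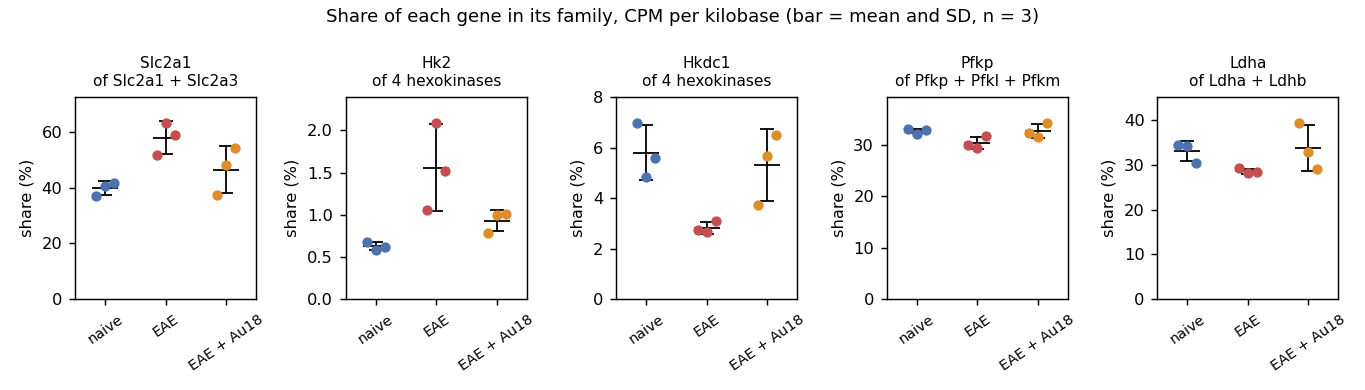
Share of a gene (percent, vertical axis from 0) in its family's summed CPM per kilobase of transcript in each library, with the mean and SD of 3 libraries a group. Slc2a1 and Hk2 took larger shares in the 3 EAE libraries than in any naive library, while Hkdc1, Pfkp and Ldha took smaller ones.

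Hk2 (chromosome 6, 82725025 to 82774454, minus strand) was the scarcest of the 9, with 105 to 374 counts per library. It was at 4.56, 3.85 and 3.998 CPM in naive, 6.52, 12.1 and 8.89 CPM in EAE and 5.64, 7.11 and 7.02 CPM in treated libraries. Every EAE and every treated value lay above every naive value, and the EAE and treated values overlapped. EAE differed from naive by 1.145 on the log2 scale (SE 0.22, edgeR adjusted p = 0.0460), a call close to the threshold. It was lost when any library other than EAE replicate 1 was left out. The edgeR adjusted p was 0.149, 0.136 and 0.148 without naive replicates 1 to 3, 0.118 and 0.0959 without EAE replicates 2 and 3, and 0.0510, 0.0731 and 0.0512 without treated replicates 1 to 3. It was also lost when only the naive and EAE libraries were fitted (edgeR adjusted p = 0.0659). Treated against untreated EAE gave -0.48 (SE 0.21, edgeR adjusted p = 0.330), with -0.23 without EAE replicate 2 and -0.68 without EAE replicate 1. Treated against naive gave 0.67 (95% interval 0.18 to 1.154), which did not pass.

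Markers of myeloid cells are given beside Hk2. Of 9 microglial markers, 6 were above 0 in EAE against naive (median 0.15) and none passed, and their sum was 316 to 378 CPM in naive, 321 to 592 CPM in EAE and 349 to 419.5 CPM in treated libraries. Relative to this sum, Hk2 was at 1.18 ± 0.141% in naive, 2.10 ± 0.115% in EAE and 1.73 ± 0.155% in treated libraries (SD, n = 3 each), with no overlap between any of the groups. Monocyte and macrophage markers summed to 9.57 to 11.5 CPM in naive, 19.1 to 122 CPM in EAE and 7.90 to 21.001 CPM in treated libraries. All 8 of these that were tested were above 0 in EAE against naive (median 2.33), and none passed. Without overlap, 5 were higher and 0 lower, where 12.2% and 11.8% of all genes were. Plac8, Chil3, Ms4a7 and F10 were at 0 in at least 1 library. Lyz2 was the highest of these markers and made up 95.5 of the 122 CPM in EAE replicate 3. Relative to this second sum, Hk2 was lower in EAE on average, at 40.4 ± 6.65% in naive, 20.3 ± 13.4% in EAE and 50.8 ± 33.3% in treated libraries (SD, n = 3 each). The monocyte and macrophage sum was highest in EAE replicate 3, while Hk2 was highest in EAE replicate 2. Their part in the level of Hk2 was not tested.

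Hkdc1 (chromosome 10, 62383137 to 62422491, minus strand) encodes a hexokinase-like enzyme and lies 3228 bases from Hk1 on the same strand, with no annotated gene between them. Its values were 30.0, 20.4 and 23.2 CPM in naive, 10.7, 9.86 and 11.6 CPM in EAE and 17.2, 25.9 and 29.0 CPM in treated libraries. All EAE values lay below all others, and the naive and treated values overlapped. EAE against naive gave -1.20 on the log2 scale (SE 0.20, edgeR adjusted p = 0.0339). The edgeR adjusted p rose to 0.132, 0.0899 and 0.106 when naive replicate 1, 2 or 3 was left out, to 0.0599, 0.125 and 0.0825 for EAE replicate 1, 2 or 3 and to 0.0615 for treated replicate 2, which ended the call each time. Treated against untreated EAE gave 1.16 (SE 0.20, 95% interval 0.70 to 1.62, edgeR adjusted p = 0.0727). It passed without treated replicate 1, the lowest of that group (1.34, edgeR adjusted p = 0.0191), and with DESeq2 (adjusted p = 1.38e-05). Treated against naive gave -0.04 (95% interval -0.48 to 0.41).

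Its neighbour Hk1 (chromosome 10, 62268855 to 62379908) differed far less, at 432, 433 and 425 CPM in naive, 413, 382 and 383 CPM in EAE and 478, 461 and 449 CPM in treated libraries. The 3 groups did not overlap, with EAE lowest and treated highest. The log2 fold changes were -0.13 (SE 0.063, edgeR adjusted p = 0.342) for EAE against naive and 0.24 (SE 0.063, edgeR adjusted p = 0.146) for treated against untreated EAE, the latter called by DESeq2 (adjusted p = 0.00987). Treated against naive gave 0.11 (95% interval -0.04 to 0.25), which did not pass.

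The 250 bases before the annotated start sites are shown for the 3 genes called in EAE against naive, because hypoxia is known to act on promoters of this pathway. The sequences are from RefSeq for GRCm38.p6, 5′ to 3′ on the strand of the gene. Capitals mark the hypoxia response core ACGTG or the related GCGTG on either strand, where CACGT and CACGC are their reverse complements. The windows are chr4:119108495-119108744 on the plus strand for Slc2a1, chr6:82774455-82774704 on the minus strand for Hk2 and chr10:62422458-62422707 on the minus strand for Hkdc1.
Slc2a1: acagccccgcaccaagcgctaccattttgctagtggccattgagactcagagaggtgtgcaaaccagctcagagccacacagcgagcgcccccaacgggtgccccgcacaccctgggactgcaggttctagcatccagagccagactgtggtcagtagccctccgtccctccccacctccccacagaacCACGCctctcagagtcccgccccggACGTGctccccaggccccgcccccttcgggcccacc
Hk2: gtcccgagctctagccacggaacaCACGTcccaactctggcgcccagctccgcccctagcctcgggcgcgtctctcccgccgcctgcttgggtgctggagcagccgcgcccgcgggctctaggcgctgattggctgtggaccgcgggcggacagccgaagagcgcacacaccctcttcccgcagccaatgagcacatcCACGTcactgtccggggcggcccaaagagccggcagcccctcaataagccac
Hkdc1: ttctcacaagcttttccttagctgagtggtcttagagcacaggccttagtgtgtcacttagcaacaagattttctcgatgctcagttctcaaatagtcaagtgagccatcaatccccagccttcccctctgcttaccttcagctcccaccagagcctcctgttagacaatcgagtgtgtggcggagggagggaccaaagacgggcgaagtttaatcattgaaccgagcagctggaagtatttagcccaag

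The Hkdc1 window lies before 1 RefSeq start of this gene but inside the span of the RefSeq gene, which reaches to 62423711 and so has a start further upstream. In GENCODE, the last bases of the Slc2a1 and Hkdc1 windows already belong to the gene. ACGTG occurred on either strand in the Slc2a1 and Hk2 windows and not in that of Hkdc1. Windows were at hand for 8 of the 9 genes, 12 windows in all, and not for Slc2a3. ACGTG was in windows of 5 of these 8 genes (Hk2, Ldha, Pfkfb3, Pkm and Slc2a1). GCGTG was in windows of 5 (Hk1, Ldha, Pfkfb3, Pfkp and Slc2a1). Counted by window, they were in 6 and 5 of the 12, against 16.6% and 28.2% of all 32851 windows of this length. CACGTG, which holds ACGTG on both strands, was in 2 of the 12 windows, of Ldha and Pfkfb3, against 6.02% of all windows. The palindromic glucocorticoid response element was in 0 of the 12 windows and in 3 of all 32851. Several genes have more than 1 window, so shares of genes and of windows are not on the same footing. The windows of Slc2a1 and Hk2 have 66.4% and 69.6% G and C, and that of Hkdc1 49.6%.

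Phosphofructokinase commits sugar to glycolysis. Pfkp (chromosome 13, 6579768 to 6648777, minus strand) was at 434, 410.0 and 433 CPM in naive, 367, 330.4 and 377 CPM in EAE and 419.5, 435 and 464 CPM in treated libraries. All EAE values lay below all others. The log2 fold changes were -0.25 (SE 0.074, edgeR adjusted p = 0.140) for EAE against naive and 0.29 (SE 0.074, edgeR adjusted p = 0.139) for treated against untreated EAE. DESeq2 called both (adjusted p = 0.0343 and 0.0130). Exons of Pfkp overlap Pitrm1 on the opposite strand over up to 748 bases, and with the strand setting not given, reads there cannot be assigned.

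Pfkfb3 (chromosome 2, 11471433 to 11554077, minus strand) was at 37.9, 32.2 and 37.2 CPM in naive, 40.6, 44.2 and 46.4 CPM in EAE and 29.6, 40.2 and 47.0 CPM in treated libraries. The EAE values lay above the naive ones, and the treated values overlapped both groups. The log2 fold change of EAE against naive was 0.29 (95% interval -0.05 to 0.63, edgeR adjusted p = 0.381), and that of treated against untreated EAE -0.17 (95% interval -0.51 to 0.17). The latter was -0.016 without treated replicate 1 and -0.32 without treated replicate 3.

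At the end of the pathway, Ldha (chromosome 7, 46841475 to 46855627, plus strand) was at 307, 263 and 238 CPM in naive, 210.2, 199 and 193 CPM in EAE and 301, 308 and 244 CPM in treated libraries. All EAE values lay below all others. EAE against naive gave -0.42 on the log2 scale (SE 0.11, edgeR adjusted p = 0.103) and treated against untreated EAE gave 0.50 (SE 0.11, edgeR adjusted p = 0.106). Both were called by DESeq2 (adjusted p = 0.0173 and 0.00486). Per kilobase of transcript, Ldha was 34.4%, 34.2% and 30.4% of Ldha and Ldhb in naive, 29.2%, 28.1% and 28.3% in EAE and 39.3%, 32.8% and 29.2% in treated libraries. The EAE shares lay below the naive ones and overlapped the treated ones. In GENCODE M21, 8 other genes share stretches of at least 100 bases at 95% identity or more with Ldha transcripts, among them Ldha-ps2, and reads of such stretches are uncertain.

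Pkm (chromosome 9, 59656368 to 59679375, plus strand), whose splice forms PKM1 and PKM2 cannot be told apart in counts per gene, was the most abundant of the 9. It was at 1219, 1083 and 1141 CPM in naive, 1196, 1043 and 1094 CPM in EAE and 1199.8, 1368 and 1081 CPM in treated libraries. The groups overlapped, and EAE against naive gave a log2 fold change of -0.05 (95% interval -0.27 to 0.18, edgeR adjusted p = 0.870). A processed copy, Gm6560, matches Pkm transcripts at 98.4% over 1593 bases and could take some of its reads.

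**Figure D3:**
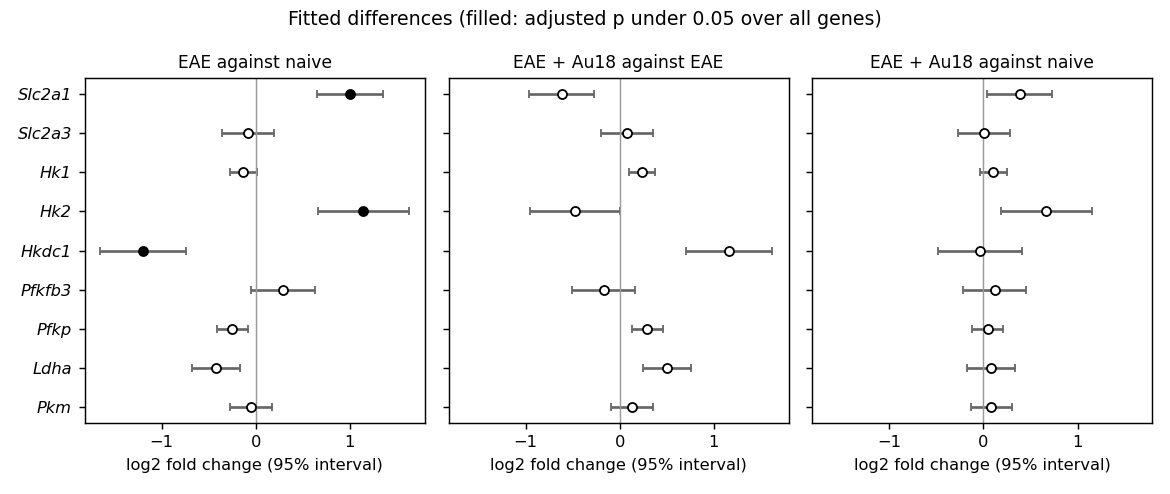
Log2 fold change of each gene (horizontal axis) with its 95% interval in the 3 comparisons, from the fit over all 9 libraries; filled points have an edgeR adjusted p under 0.05 over all genes. Slc2a1, Hk2 and Hkdc1 are filled in EAE against naive and no gene is filled in the other panels.

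Without regard to the test, EAE and naive values did not overlap for 7 of the 9 genes, 3 higher and 4 lower, where this was so for 24.0% of all genes tested (12.2% higher and 11.8% lower). Treated and untreated EAE did not overlap for 5 of the 9 (Slc2a1, Hk1, Hkdc1, Pfkp and Ldha), 4 higher and 1 lower, where 19.2% of all genes did not (9.93% higher and 9.28% lower). Treated and naive did not overlap for 3 (Slc2a1, Hk1 and Hk2, all higher), where 6.25% of all genes did not (3.51% higher and 2.74% lower). At an unadjusted p under 0.05 there were 5, 6 and 2 of the 9 in these comparisons, against 16.4%, 15.1% and 1.71% of all genes. Treated against naive had 0 genes past the edgeR threshold, 318 at an unadjusted p under 0.05 and 3 past the threshold of DESeq2, and none of those 3 is among the 9. DESeq2 called 5 of the 9 in each of the other comparisons, where it called 5.59% and 3.69% of all genes, and 0.0109% in treated against naive.

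Levels differ widely between the 9 genes. In naive cortex, CPM per kilobase of the principal transcript was 472 ± 28.01 for Pkm, 153 ± 19.7 for Ldha, 112 ± 1.10 for Hk1, 103 ± 3.24 for Pfkp, 40.2 ± 2.54 for Slc2a3, 26.6 ± 1.93 for Slc2a1, 7.72 ± 0.677 for Pfkfb3, 6.98 ± 1.40 for Hkdc1 and 0.750 ± 0.0679 for Hk2 (SD, n = 3 each). Of the neighbours in this order, Pfkfb3 and Hkdc1 did not differ beyond their spread. In EAE the levels per kilobase of Slc2a1 and Slc2a3 were in the other order, at 53.2 ± 10.7 and 38.1 ± 1.78. This change of order depended on the length used. With merged exons as gene length, the mean of Slc2a1 was already above that of Slc2a3 in naive cortex and stayed above it in EAE.

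Markers of neurons and red cells are given beside Hkdc1, Pfkp, Ldha and Hk1. The summed neuronal markers were at 10774 to 11267 CPM in naive, 10213 to 10816 CPM in EAE and 11207 to 12192 CPM in treated libraries. The naive and EAE sums overlapped, and the EAE and treated sums did not. In EAE against naive, 8 of 12 markers were below 0 and 4 above (median -0.12, lowest -0.31). Without overlap, 4 were lower and 0 higher, where 11.8% and 12.2% of all genes were. In treated against untreated EAE, 8 were above 0 and 4 below (median 0.22). Without overlap, 5 were higher and 0 lower, where 9.93% and 9.28% of all genes were. None passed in either comparison, and none was at 0 in any library. Relative to that sum, Pfkp was at 3.84 ± 0.191% in naive, 3.38 ± 0.143% in EAE and 3.74 ± 0.0736% in treated libraries (SD, n = 3 each). Ldha was at 2.43 ± 0.272%, 1.90 ± 0.0822% and 2.43 ± 0.369% (SD, n = 3 each). For both ratios, all EAE values lay below all others. Camk2a, the largest part of the neuronal sum, was at 3304 to 4047 CPM in naive and 3681 to 3936 CPM in EAE. The ratios therefore depend on the markers summed and show only an unequal change of a gene and that sum. The ratio of Hk1 was 3.88 ± 0.0598% in naive, 3.71 ± 0.123% in EAE and 3.94 ± 0.298% in treated libraries (SD, n = 3 each), and its EAE and treated values overlapped. Markers of red cells, which depend on glycolysis, differed more: 6 erythrocyte markers summed to 131 to 175 CPM in naive, 7.30 to 23.6 CPM in EAE and 102 to 380 CPM in treated libraries. All 5 of these markers that were tested were below 0 in EAE against naive, and Slc4a1 was at 0 in at least 1 library. Hba-a2 and Hbb-bs passed the threshold, where 0.252% of all genes were lower past it. In treated against untreated EAE, 1 of the 5 was higher past the threshold, where 0.0912% of all genes were. Without overlap, all 5 were lower in the first comparison and higher in the second, where 11.8% and 9.93% of all genes were. The part of blood in the levels of the 9 genes was not tested.

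**Figure D4:**
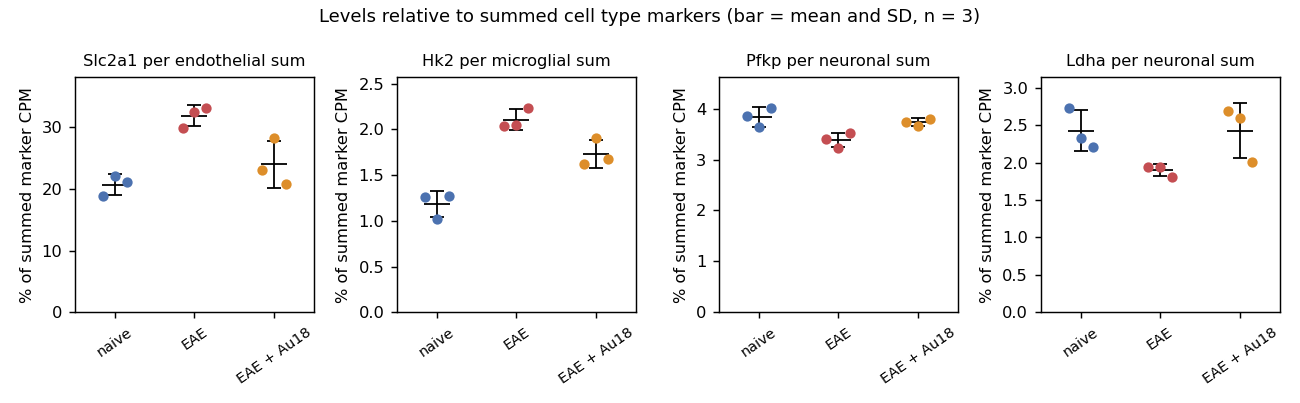
Level of a gene as a percentage of the summed CPM of cell type markers (vertical axis from 0) in each library, with the mean and SD of 3 libraries a group. The EAE libraries lie above all others for Slc2a1 per endothelial sum and Hk2 per microglial sum and below all others for Pfkp and Ldha per neuronal sum.

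The wider pathway was examined in 5 lists of genes next to the 9, of which 89 genes were tested. In EAE against naive, 1 was higher and 1 lower past the threshold, where 0.735% and 0.252% of all genes were. The other 17 glycolytic enzymes tested had a median log2 fold change of -0.13, with 12 below 0 and none past the threshold, where the median of all genes tested was -0.01. Of the 17, 4 did not overlap between the groups, 1 higher and 3 lower. This is near the share of all genes, 24.0% (12.2% higher and 11.8% lower). Eno1 (-0.21), Pgam1 (-0.22) and Tpi1 (-0.19) were lower in all EAE libraries than in any naive one, and Aldoc, the aldolase of astrocytes (0.35), was higher in all. These 4 were chosen after their values were seen. The median of 19 hypoxia targets outside glycolysis was -0.02, with none past the threshold. Of these, 4 were higher and 3 lower in all EAE libraries than in any naive one, where 12.2% and 11.8% of all genes were. Glycogen and pentose phosphate enzymes had a median of 0.02 and none of 19 past the threshold.

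Txnip was the gene that passed upward, among 20 tested genes that control glycolysis and the entry of pyruvate into mitochondria (median -0.02). Its product promotes the removal of GLUT1 from the cell surface. Txnip was at 14.95, 17.5 and 18.2 CPM in naive, 31.2, 51.1 and 39.7 CPM in EAE and 23.1, 19.0 and 23.2 CPM in treated libraries, and no groups overlapped. It rose by 1.27 on the log2 scale in EAE (SE 0.17, edgeR adjusted p = 0.0192), and leaving out naive replicate 1, 2 or 3 (edgeR adjusted p = 0.119, 0.0959 and 0.0731) or EAE replicate 3 (0.0575) ended this call. In treated against untreated EAE it was at -0.90 (SE 0.17, edgeR adjusted p = 0.0851), which passed without EAE replicate 1 (-1.07, edgeR adjusted p = 0.0319) and with DESeq2 (adjusted p = 0.000219).

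Slc16a7, which encodes the neuronal lactate and pyruvate carrier MCT2, was the gene that passed downward, among 14 tested hexose and monocarboxylate transporters (median -0.12, 11 below 0). Without overlap, 6 of the 14 transporters were lower in EAE than in naive and 0 higher, where 11.8% and 12.2% of all genes were. Slc16a7 was at 49.4, 43.7 and 46.5 CPM in naive, 34.4, 29.2 and 36.4 CPM in EAE and 45.2, 45.1 and 45.2 CPM in treated libraries. All EAE values lay below all others. It fell by 0.48 on the log2 scale (SE 0.089, edgeR adjusted p = 0.0401). The call was lost in 8 of 9 fits that left out a library, all but the one without treated replicate 3, with edgeR adjusted p between 0.0510 (without treated replicate 1) and 0.163 (without naive replicate 1), the others being 0.101 and 0.124 without naive replicates 2 and 3, 0.0582, 0.0985 and 0.0632 without EAE replicates 1 to 3 and 0.0699 without treated replicate 2. It was at 0.0631 when only naive and EAE libraries were fitted. Treated against untreated EAE gave 0.44 (SE 0.089, edgeR adjusted p = 0.0914), called by DESeq2 (adjusted p = 0.00322).

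**Figure D5:**
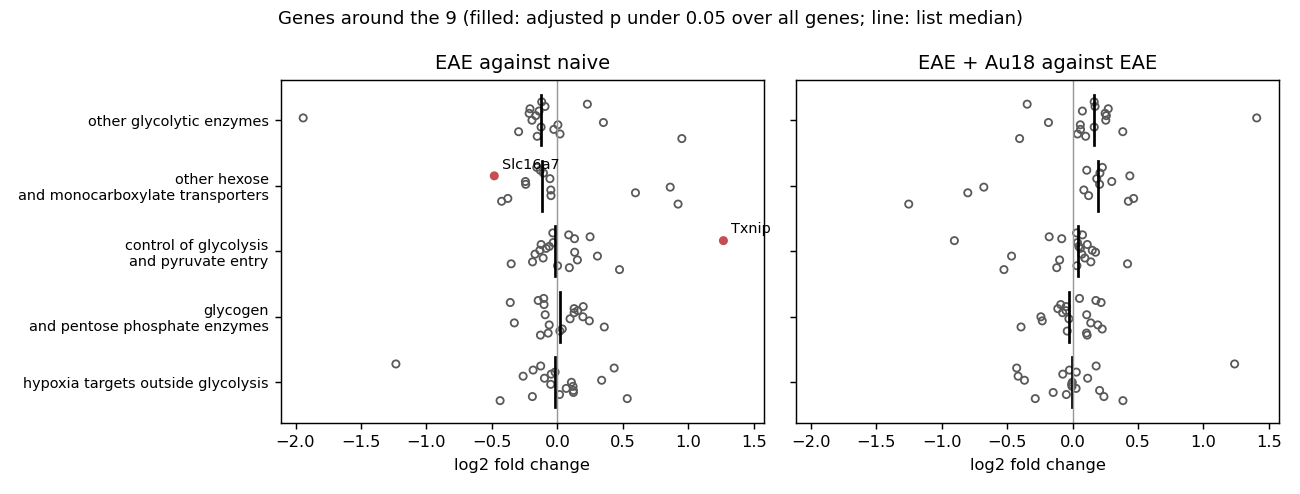
Log2 fold change (horizontal axis) of 89 genes in 5 lists around the 9, in EAE against naive and in treated against untreated EAE; vertical lines are list medians, and filled points have an edgeR adjusted p under 0.05 over all genes. Txnip and Slc16a7 are the filled points, both in EAE against naive.

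In treated against untreated EAE, none of the 89 passed with edgeR, 25 had an unadjusted p under 0.05, where 15.1% of all genes did, and DESeq2 called 9, where it called 3.69% of all genes. The medians were 0.17 for the other glycolytic enzymes, with 14 of 17 above 0, and 0.20 for the transporters, with 11 of 14 above 0, where the median of all genes tested was 0.00. Since both comparisons use the same EAE libraries, opposite signs in them are not separate findings. Treated against naive had medians between 0.00 and 0.06 in the 5 lists.

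Gapdh, a glycolytic enzyme often taken as a reference gene and named here after its values were seen, was uneven within groups. It was at 113, 13.2 and 74.9 CPM in naive, 16.8, 18.4 and 17.3 CPM in EAE and 14.9, 109 and 15.1 CPM in treated libraries. The values were 13.2 to 18.4 CPM in 6 libraries and 74.9 CPM or more in naive replicates 1 and 3 and treated replicate 2. No comparison passed (edgeR adjusted p = 0.363 or more). Transcripts similar to those of Gapdh were not sought, so whether its reads were counted fully was not tested.

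Genes whose log2 CPM followed a member most closely over the 9 libraries were sought among 13858 genes (mean log2 CPM 0 or more). Pearson's r is given as a description, since libraries share depth, composition and group. For Slc2a1 these were Mertk, Rin2 and Smox (r = 0.99, 0.99 and 0.98), and for Hk2 they were Fas, Tlr13 and Paqr5 (0.98, 0.97 and 0.97). Those of Hkdc1 were Oprd1, Grm3 and Stmn1 (0.99, 0.98 and 0.98), and those of Pfkp Tppp, Glrb and Septin6 (0.98, 0.98 and 0.98). Ldha was followed by Atp6v0c, Actg1 and Lyplal1 (0.99, 0.98 and 0.98) and Hk1 by Usp4, Stmn2 and Ywhag (0.96, 0.96 and 0.95). Tenm4, Ripor2 and Zfp831 were nearest to Slc2a3 (0.99, 0.99 and 0.98), Nr1h3, Acot11 and Cdh19 to Pfkfb3 (0.97, 0.97 and 0.97) and Urgcp, Dipk1b and Lrrc56 to Pkm (0.98, 0.97 and 0.97). Among the 36 pairs of the 9 genes themselves, r ran from -0.86 for Slc2a3 with Pfkfb3 to 0.94 for Slc2a1 with Hk2, and Hkdc1 with Pfkp had 0.93.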

How the data were processed

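Poly(A) RNA of 9 cortex samples was sequenced, per the labels' protocols. Per the series' design text, Hisat2 aligned the reads after fastp had trimmed them, and bowtie2 served for quantification. The build was mm10 and the FastQC version 0.11.8, per the submitters' processing notes. The sources used here name no annotation, strand setting or counting option. The authors deposited raw counts per gene symbol, and 9 further columns matching no sample used here were not used. In every library 3.80 to 4.43 times as many genes had a count of 2 as of 1, so the unit of a count (a read or a fragment) is unsure.

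Counts were fitted with edgeR 4.0.16 under R 4.3.3 (filterByExpr, TMM, robust glmQLFit, glmQLFTest) over 9 libraries and adjusted by Benjamini and Hochberg over 18644 genes. A gene passed at an adjusted p under 0.05. SE was taken as |log2 fold change| over sqrt(F). DESeq2 1.42.0 and other settings served as alternatives. The fit was tested on simulated data. Some listed genes are not reported here. The members and gene lists were chosen with earlier results of these data known. Besides the 9, the text names called list genes, the 3 genes most alike to each member and the highest marker or those at 0. Markers that passed, and other genes where said, were picked with their values known. Coordinates, exons and transcript lengths (the longest principal transcript) are from GENCODE M21 (GRCm38), and similar transcripts were sought with BLAST 2.17.0. Same-numbered EAE and treated libraries deviated together from their group means (r = 0.17, 0.24 and 0.24). All 9 libraries, naive ones included, were therefore also fitted together with the replicate number as a block. The numbers come from the titles, and no label says what they share.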

Additional observations from a re-analysis of the deposited data

How the results depend on the processing

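With 3 libraries a group, calls near the threshold moved with the setting. In EAE against naive, 184 genes passed with edgeR, 81 of them with an absolute log2 fold change above 1, 1042 with DESeq2 and 2 to 261 when a library was left out. In treated against untreated EAE these counts were 41, 11, 688 and 4 to 38, and 3 when only those 2 groups were fitted. In treated against naive they were 0, 0, 3 and 0. Of the 9 genes, 3 passed in EAE against naive, 5 with DESeq2 and 0 to 2 when a library was left out, and in treated against untreated EAE 0, 5 and 0 to 1. Of the 89 genes around them, 2 passed in EAE against naive, 1 of them with an absolute log2 fold change above 1, 8 with DESeq2 and 0 to 5 when a library was left out, and in treated against untreated EAE 0, 9 with DESeq2 and 0 to 1. The cause of these differences was not tested.

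With the replicate block, 238 of 18644 genes, 1 of the 9 (Slc2a1) and 4 of the 89 passed in EAE against naive, with Hk2 at edgeR adjusted p = 0.0505 and Hkdc1 at 0.0518. Same-numbered libraries of that comparison deviated with r = 0.05, 0.11 and 0.36, and those of treated and naive with -0.25, -0.12 and 0.20. EAE replicate 2 had a higher r with naive replicate 1 (0.22) than with its own number. Whether same-numbered samples share more than a number there is not known. In treated against untreated EAE, each library correlated best with its own number. The block, which also tied the naive libraries to these numbers, changed no call among the 9 genes in that comparison.

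Signs changed in differences near 0. For Slc2a3 in treated against naive (0.00), the log2 fold change was -0.00064 with RLE factors, -0.00031 with DESeq2, -0.0049 without the filter, -0.0032 with only the 2 groups, -0.0099 with the replicate block and -0.15 to 0.13 when a library was left out. Leaving out a library also turned, in treated against naive, Hkdc1 (-0.19 to 0.15), Pfkfb3 (-0.035 to 0.28), Ldha (-0.0041 to 0.18) and Pkm (-0.017 to 0.16), and Slc2a3 in treated against untreated EAE (-0.078 to 0.21). All other differences of the 9 genes kept their sign in the alternatives run.

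With merged exons as gene length, added after the data were seen, mean shares in naive, EAE and treated libraries were 52.9%, 70.0% and 59.4% for Slc2a1, 1.23%, 3.06% and 1.82% for Hk2, 8.47%, 4.14% and 7.73% for Hkdc1, 16.1%, 14.5% and 16.1% for Pfkp, and 24.0%, 20.4% and 24.7% for Ldha. The order of the group means was the same for Slc2a1, Hk2, Hkdc1 and Ldha. The effect of depth on the calls was not tested; the scarcest of the 9, Hk2, had 105 to 374 counts per library.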
